A study of Homo sapiens with 8 samples.

Results

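The genes described here build and drive the mitotic spindle, fold chromosomes, start anaphase and cut the dividing cell apart. They are a list of 50 named genes with known roles in mitosis, drawn up with earlier results of these data known, and all 50 were found among the 23228 genes of the deposited tables and had enough reads to be tested. By role they comprise 12 kinesin motors, 16 spindle assembly and microtubule-binding genes, 9 genes of condensins and chromosome structure, 4 genes of anaphase onset, 6 genes of the central spindle and cytokinesis, and 3 further mitotic genes.

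In a dividing cell, kinesins use ATP to move along, slide or take apart microtubules, and proteins such as TPX2 and the kinase AURKA help new microtubules form around the chromosomes. Condensins are rings built on SMC2 and SMC4 that loop and compact the chromosomes, and the anaphase-promoting complex, a ubiquitin ligase switched on by CDC20, then releases the protease separase to part the sister chromatids. The central spindle and the contractile ring finally divide the cell. Transcripts of most of these genes peak in the G2 and M phases, so their summed level in a culture is widely used as a measure of proliferation in tumour cells, glioblastoma included.

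RNA was sequenced from 8 libraries in 4 groups of 2, with the label U87 MG, a human glioblastoma cell line in wide use. The libraries labelled ERb5 and ERb1 are from cells with CRISPR/Cas9 knockout of estrogen receptor beta (gene ESR2) that had been given back the ERβ5 or the ERβ1 isoform. Those labelled ERb_KO are from the knockout cells, and those labelled control from U87 cells without the knockout. The labels name no promoter for the returned isoforms, no clone number and no drug treatment, and do not state whether the 2 libraries under a label are separate cultures or repeat preparations. The p-values below therefore reflect the scatter among these 8 libraries alone, some or all of which may be technical. In bulk RNA, fewer cells in mitosis and less of a transcript per cell cannot be told apart.

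Gene counts ran from 26760897 to 48076414 per library, and a member had between 47 and 19796 counts in a library. ESR2 had 7 and 10 counts in the libraries labelled ERb5, 6 and 18 in those labelled ERb1, 23 and 21 in those labelled ERb_KO, and 25 and 20 in control. These counts are near the detection limit and do not bear out a knockout or a returned isoform, so every direction below is a direction between libraries as labelled. The labelled cell type was not borne out either. All 15 luminal epithelial markers reached 10 CPM (the depth-scaled count) in every library, with KRT8 at 2057 to 4453 CPM and CDH1 at 1734 to 2645 CPM. Of 15 glial and mesenchymal glioma markers 5 reached 10 CPM in every library. They were FN1 (52.7 to 175 CPM), LGALS1 (57 to 104), CD44 (47.4 to 61.9), COL1A1 (15.4 to 29.4) and SOX2 (11.4 to 30.2). GFAP stayed at or below 0.136 CPM, and OLIG2, S100B and POSTN were at 0 in all 8. The summed luminal markers ranged over 17376 to 18693 CPM in ERb5, 18529 to 19600 CPM in ERb1, 13642 to 14160 CPM in ERb_KO, and 15932 to 16710 CPM in control. The summed glial markers ranged over 251 to 253 CPM in ERb5, 237 to 271 CPM in ERb1, 313 to 354 CPM in ERb_KO, and 294 to 305 CPM in control. Immune markers summed to at most 13.9 CPM and endothelial and pericyte markers to at most 27.3 CPM in any library. The part of these markers in the results on mitotic genes was not tested.

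Across the libraries, the mitotic genes were highest in those labelled ERb_KO and lowest in those labelled ERb1. The 50 genes summed to 2326 and 2347 CPM in the ERb5 libraries, 1717 and 1792 CPM in the ERb1 libraries, 4411 and 3777 CPM in the ERb_KO libraries, and 2707 and 2464 CPM in the control libraries. The groups did not overlap in this sum. As a share of all gene counts, the list took 0.235% and 0.232% in ERb5, 0.171% and 0.18% in ERb1, 0.451% and 0.377% in ERb_KO, and 0.268% and 0.244% in control. Both ERb_KO libraries were the highest of the 8 for 47 members, a position held by 17.9% of all genes tested, and the 3 exceptions were the motor KIF22, the microtubule polymerase CKAP5 and the condensin II subunit NCAPD3. Both ERb1 libraries were the lowest of the 8 for 42 members, against 6.76% of all genes tested. The 8 exceptions were KIF18A, KIF20B, CKAP2, CKAP5, NCAPD3, SMC2, SMC4 and ECT2. In 41 members the group means ran in the order ERb_KO, control, ERb5, ERb1, compared with 6.68% of all genes tested, and in 28 members all 8 libraries kept that order without overlap, compared with 1.37%.

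**Figure D1:**
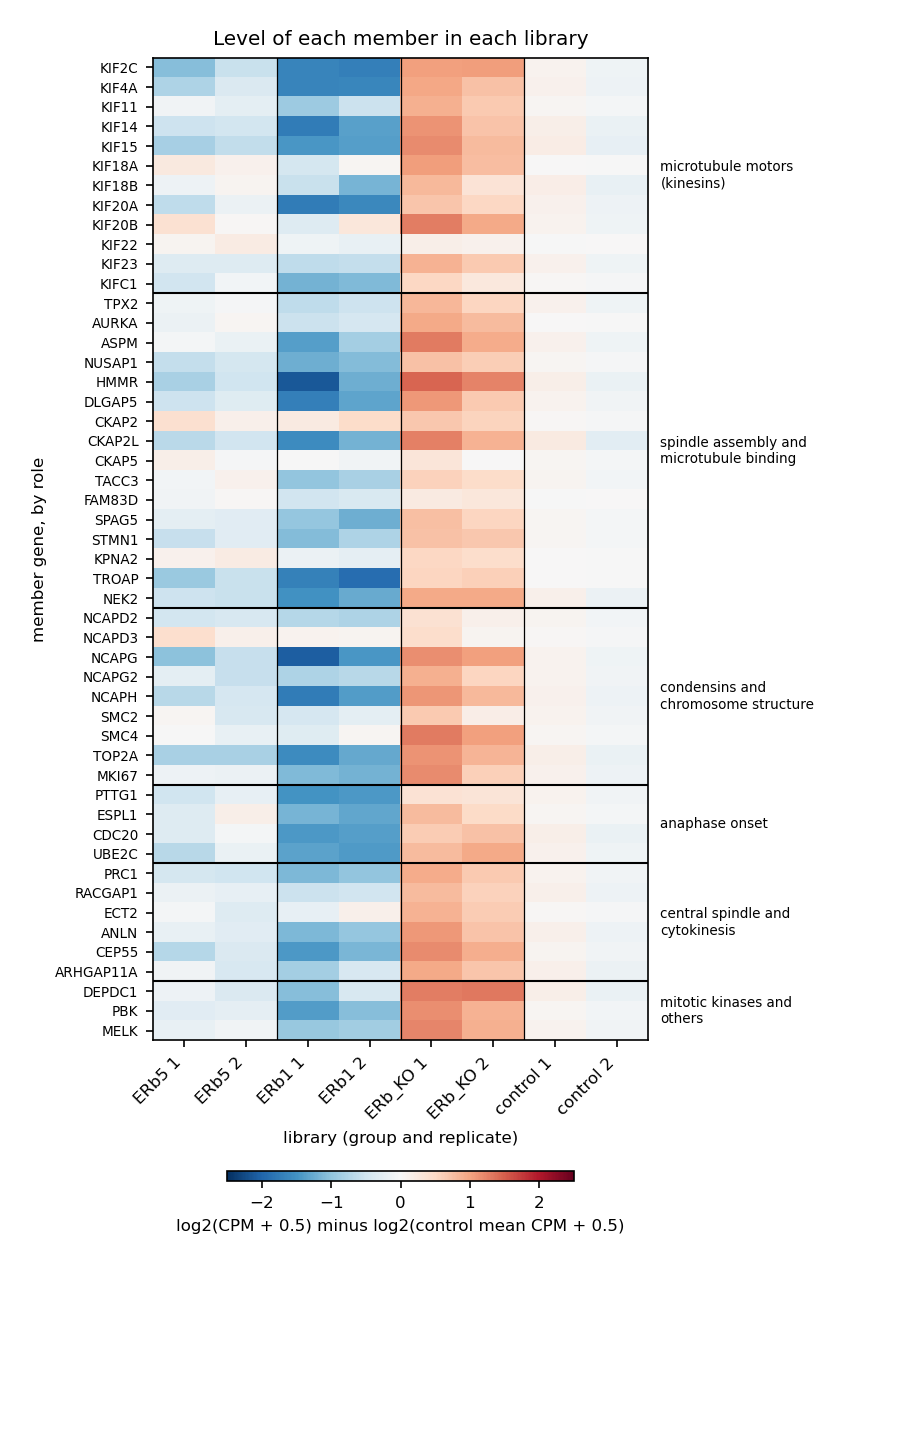
Level of each of the 50 mitotic genes (rows, by role) in each of the 8 libraries (columns), as log2(CPM + 0.5) minus the same for the control mean. Red marks levels above the control mean and blue levels below it. The median over the members was -0.26 in both ERb5 libraries, -1.10 and -0.98 in the ERb1 libraries, and 0.89 and 0.66 in the ERb_KO libraries.

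The levels of the members themselves spread widely when set per kilobase of transcript. Averaged over the 8 libraries, the nuclear import receptor KPNA2 was the highest, at 171 CPM per kb, and the astral microtubule motor KIF18B was the lowest of the kinesins, at 0.921 CPM per kb. Among the motors KIF22, which pushes chromosome arms away from the poles, was the highest at 64.9 CPM per kb. Within the spindle assembly genes the low end was CKAP2L at 1.38 CPM per kb. SMC4 was the highest chromosome-structure gene at 23.7 CPM per kb and the condensin I subunit NCAPG the lowest at 2.37 CPM per kb. UBE2C, the ubiquitin-conjugating enzyme of the anaphase-promoting complex, stood at 41.2 CPM per kb and separase (ESPL1) at 4.14 CPM per kb. The highest and lowest cytokinesis genes were PRC1, which bundles antiparallel microtubules, at 22.1 CPM per kb, and the RhoA GTPase-activating protein ARHGAP11A at 4.49 CPM per kb. Of the other 3 genes, the kinase PBK had 11.3 CPM per kb and DEPDC1 had 2.37 CPM per kb.

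Promoters of many mitotic genes carry a cell cycle homology region (CHR), which the LIN54 subunit of the DREAM complex binds, and CCAAT boxes, which NF-Y binds. RefSeq promoter windows (GRCh38.p14, 250 bases before to 50 bases after the annotated start) were found for 43 members and searched for CHR letters (TTTGAA or its reverse complement TTCAAA) and CCAAT box letters (CCAAT or ATTGG). CHR letters were present in 32 of the 43 windows (74.4%), against 12.5% of 15843 windows of protein-coding genes. CCAAT box letters were in 30 (69.8%), against 36% of the coding windows, and both were in 25 (58.1%), against 5.18%. In 1 of those 25 windows a CHR and a CCAAT match shared bases. The E2F-type letters TTCCCGC or TTGGCGC, on either strand, were in 8 windows (18.6%), against 11.9%, and TATAAA was in 3 (6.98%), against 9.91%. Of 45 CHR matches 28 began within 120 bases before the start, as did 51 of 61 CCAAT matches. These matches are descriptions of letters in a window and not of binding, and other spellings of these sites were not searched.

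The windows of the 3 members with the largest and the 3 with the smallest log2 change in ERb1 against ERb_KO are shown to let the letters be set beside those changes, each up to 30 bases past the start, with CHR and CCAAT letters in capitals. The first 3 had the largest falls and are at chr5:163460382-163460661 on the plus strand for HMMR, chr4:17810729-17811008 on the plus strand for NCAPG and chr1:44739587-44739866 on the plus strand for KIF2C.
HMMR: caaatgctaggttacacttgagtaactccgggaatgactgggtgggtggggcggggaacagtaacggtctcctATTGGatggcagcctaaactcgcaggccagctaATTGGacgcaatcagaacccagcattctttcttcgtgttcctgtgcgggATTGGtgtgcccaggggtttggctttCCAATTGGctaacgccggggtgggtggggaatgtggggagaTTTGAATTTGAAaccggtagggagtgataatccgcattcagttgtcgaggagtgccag
NCAPG: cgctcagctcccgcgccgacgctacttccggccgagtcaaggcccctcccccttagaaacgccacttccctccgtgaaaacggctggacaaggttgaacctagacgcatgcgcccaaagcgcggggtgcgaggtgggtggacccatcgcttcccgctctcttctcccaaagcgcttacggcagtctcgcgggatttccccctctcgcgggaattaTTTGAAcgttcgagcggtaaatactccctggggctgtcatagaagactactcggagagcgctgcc
KIF2C: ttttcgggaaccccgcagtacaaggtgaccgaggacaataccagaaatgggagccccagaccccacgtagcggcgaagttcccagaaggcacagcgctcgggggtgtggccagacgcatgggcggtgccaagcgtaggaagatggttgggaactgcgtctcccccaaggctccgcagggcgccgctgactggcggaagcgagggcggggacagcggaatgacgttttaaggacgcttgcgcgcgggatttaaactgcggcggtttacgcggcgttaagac
The next 3 had the smallest changes and are at chr11:134223938-134224217 on the minus strand for NCAPD3, chr11:46846251-46846530 on the minus strand for CKAP5 and chr13:52455738-52456017 on the plus strand for CKAP2.
NCAPD3: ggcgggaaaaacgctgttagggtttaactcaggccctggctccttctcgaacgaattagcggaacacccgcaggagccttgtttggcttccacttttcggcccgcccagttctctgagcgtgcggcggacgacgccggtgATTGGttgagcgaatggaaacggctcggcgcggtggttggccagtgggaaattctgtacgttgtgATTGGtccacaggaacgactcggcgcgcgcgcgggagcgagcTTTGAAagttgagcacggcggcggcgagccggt
CKAP5: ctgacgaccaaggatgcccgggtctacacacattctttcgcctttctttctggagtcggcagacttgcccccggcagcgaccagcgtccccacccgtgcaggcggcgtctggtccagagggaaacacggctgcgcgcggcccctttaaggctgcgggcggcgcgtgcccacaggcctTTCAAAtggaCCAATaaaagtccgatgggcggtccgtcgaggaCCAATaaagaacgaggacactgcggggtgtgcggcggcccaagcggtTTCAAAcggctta
CKAP2: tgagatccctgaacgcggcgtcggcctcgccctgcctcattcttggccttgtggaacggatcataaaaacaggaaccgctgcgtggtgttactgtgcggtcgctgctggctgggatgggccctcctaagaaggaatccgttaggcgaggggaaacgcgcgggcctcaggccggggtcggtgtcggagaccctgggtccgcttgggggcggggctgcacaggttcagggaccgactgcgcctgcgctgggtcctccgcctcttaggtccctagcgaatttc
Neither set was uniform. HMMR held 2 CHR and 5 CCAAT matches and NCAPG 1 CHR match, while KIF2C, with the third-largest fall, held none of the letters searched. CKAP5 held 2 of each and NCAPD3 1 CHR and 2 CCAAT matches, although neither passed the test in that comparison, and CKAP2 held none. Over the whole list the 32 members with CHR letters had a median log2 change of -1.86 in ERb1 against ERb_KO and the 11 without them -1.88. In ERb5 against ERb_KO these medians were -1.13 and -1.08, and in ERb_KO against control 0.84 and 0.70.

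**Figure D2:**
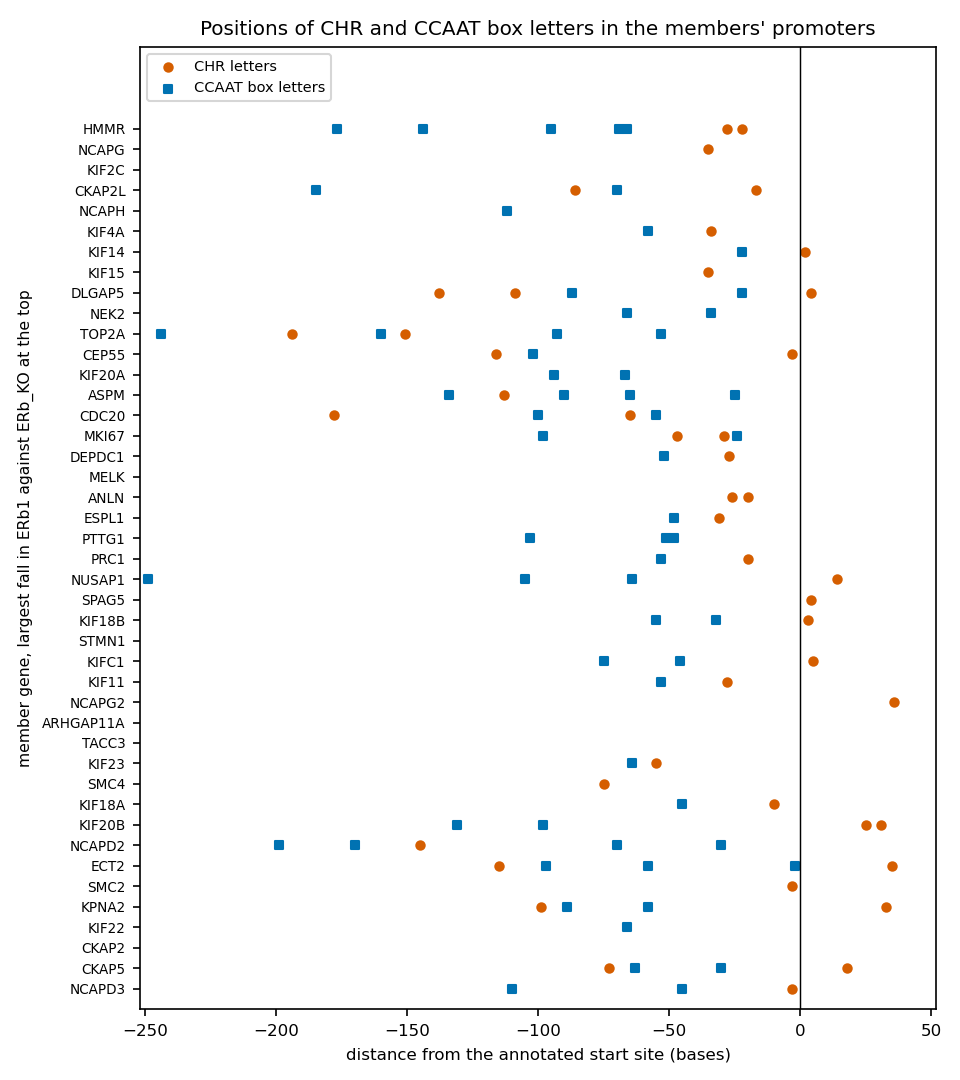
Start of each CHR match (circles) and CCAAT box match (squares) relative to the annotated start site (vertical line), in bases, for the 43 members with a promoter window. Members run down the page from the largest fall (HMMR) to the smallest (NCAPD3) in ERb1 against ERb_KO. Most matches lie within 120 bases before the start, in members at both ends of the order.

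The first comparison asks what accompanied loss of the receptor, as labelled. In the libraries labelled ERb_KO, 41 of the 50 members rose against control, none fell and 9 did not pass edgeR's test (adjusted p under 0.05), whereas 8.98% of all genes tested rose, 8.52% fell and 17.5% changed in either direction. The median change of the members was 0.80 on the log2 scale, or 1.74-fold higher, against 0.0094 over all genes. ESR2 counts did not separate these groups, as given above. HMMR, a spindle assembly factor on chromosome 5 (162887209 to 162918947, plus strand, GRCh37, the build of hg19), rose most. It had 55.6 and 48.4 CPM in the ERb_KO libraries, against 22.2 and 17.9 CPM in the control libraries, a log2 change of 1.37 ± 0.24 (SE, adjusted p = 0.0064). DEPDC1, a gene induced in mitosis, had 25.2 and 25.9 CPM in ERb_KO and 11.3 and 8.93 CPM in control (1.33 ± 0.20, adjusted p = 0.00255). Levels of the condensin core ATPase SMC4 (chromosome 3, 160117062 to 160152742, plus strand) were 235 and 193 CPM in ERb_KO and 98.3 and 90.9 CPM in control (1.18 ± 0.14, adjusted p = 0.000726). In each of these 3 genes both ERb_KO libraries lay above both control libraries.

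Rises were spread over the roles. They comprised 9 of 12 kinesins, with a median log2 change of 0.83, 14 of 16 spindle assembly genes (0.69), 6 of 9 chromosome-structure genes (0.92), 3 of 4 anaphase genes (0.67), 6 of 6 cytokinesis genes (0.83) and 3 of 3 of the others (1.08). The 9 members that did not pass were KIF18B, KIF22, KIFC1, CKAP5, FAM83D, NCAPD2, NCAPD3, SMC2 and PTTG1. The smallest changes were those of KIF22 (0.13 ± 0.09, adjusted p = 0.334), CKAP5 (0.17 ± 0.12, adjusted p = 0.337) and FAM83D, which brings casein kinase 1 to the spindle (0.26 ± 0.12, adjusted p = 0.133). KIF22 had 147 and 142 CPM in ERb_KO and 131 and 133 CPM in control, so its groups did not overlap but lay close.

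The count of rises depended on single libraries, and base composition set the ERb_KO libraries apart. Fewer members passed without the second control library or without the first ERb_KO library, and fewer of all genes tested passed as well. The median log2 change of the members was then 0.73 and 0.67, with a lone library assumed to vary like the other groups. Log2 levels fell with the GC content of the transcript across genes in both ERb_KO libraries (r = -0.5986 and -0.5083, relative to the mean of the 8 libraries) but not in the ERb5 libraries (r = 0.1398 and 0.3725) or the control libraries (r = 0.1387 and 0.2229), and the 2 ERb1 libraries lay on opposite sides of 0 (r = 0.4015 and -0.1604). The members had a median GC content of 43.5% against 48.8% over all annotated genes tested. Across the 50 members, which share these libraries, the log2 change had r = -0.594 with GC content. With the GC and length trend of each library removed, 45 members rose and the median was 0.68.

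**Figure D3:**
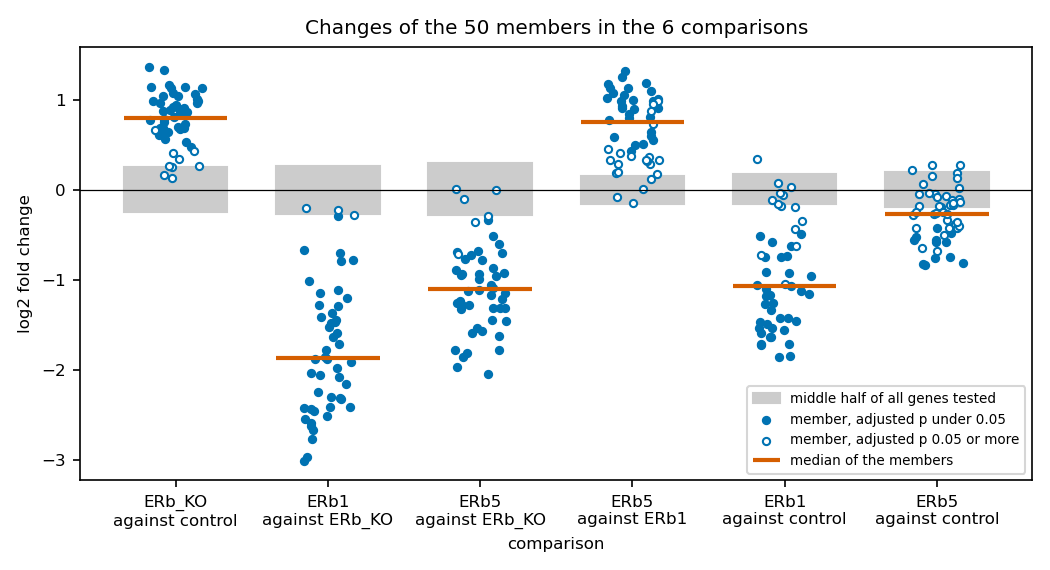
Log2 fold change (vertical axis) of each of the 50 members in the 6 comparisons, filled where the adjusted p was under 0.05, with the median of the members as a bar and the middle 50% of all 13915 genes tested in grey. Medians ran from -1.86 in ERb1 against ERb_KO to 0.80 in ERb_KO against control. Comparisons share libraries and are not independent.

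Of the 6 comparisons, ERb1 against ERb_KO had the largest median change of the mitotic genes. Here 47 of the 50 members fell, none rose and 3 did not pass, while 12.5% of all genes tested fell, 12.4% rose and 24.9% changed. The median log2 change was -1.86, or 3.63-fold lower, against -8.2e-05 over all genes. Of the members 42 were at least 2-fold lower and 21 at least 4-fold lower, against 613 and 163 of all 13915 genes tested. ESR2 counts were no higher in the libraries labelled ERb1. HMMR had 4.21 and 8.39 CPM in ERb1 and 55.6 and 48.4 CPM in ERb_KO, and fell by 3.01 ± 0.26 on the log2 scale (adjusted p = 5.18e-05). NCAPG (chromosome 4, 17812602 to 17846488, plus strand) had 2.22 and 3.64 CPM in ERb1 and 24.8 and 22.5 CPM in ERb_KO, and fell by 2.97 ± 0.22 (adjusted p = 7.55e-06). KIF2C, a kinesin that takes microtubules apart at kinetochores (chromosome 1, 45205490 to 45233439, plus strand), had 12.1 and 11.5 CPM in ERb1 and 80.2 and 80.4 CPM in ERb_KO, and fell by 2.77 ± 0.16 (adjusted p = 3.9e-06). None of the ERb1 libraries came near an ERb_KO library in these genes, although the 2 ERb1 libraries differed clearly from each other in HMMR.

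All 12 kinesins fell in ERb1 against ERb_KO, with a median log2 change of -1.65 and a range of -2.77 to -0.28. KIF22 was the smallest of them, with 122 and 116 CPM in ERb1 and 147 and 142 CPM in ERb_KO (-0.28 ± 0.09, adjusted p = 0.0461). It lost its call in 10 alternative settings, not counting the one that asks for a minimum change of 1.5-fold. Of the spindle assembly genes 14 of 16 fell (median -1.70), and of the chromosome-structure genes 8 of 9 (-1.48). Every anaphase gene (4, median -2.03), every cytokinesis gene (6, -1.67) and each of the other 3 (-2.05) fell. The 3 members that did not pass were NCAPD3 (-0.20 ± 0.14, adjusted p = 0.321), CKAP5 (-0.22 ± 0.12, adjusted p = 0.19) and the spindle microtubule protein CKAP2 (-0.27 ± 0.12, adjusted p = 0.124). CKAP2 had 49.0 and 57.7 CPM in ERb1 and 67.5 and 61.8 CPM in ERb_KO, and its log2 change was 0.052 with the GC and length trend removed. CKAP5, at 365 and 343 CPM in ERb1 and 454 and 369 CPM in ERb_KO, also serves interphase microtubules.

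**Figure D4:**
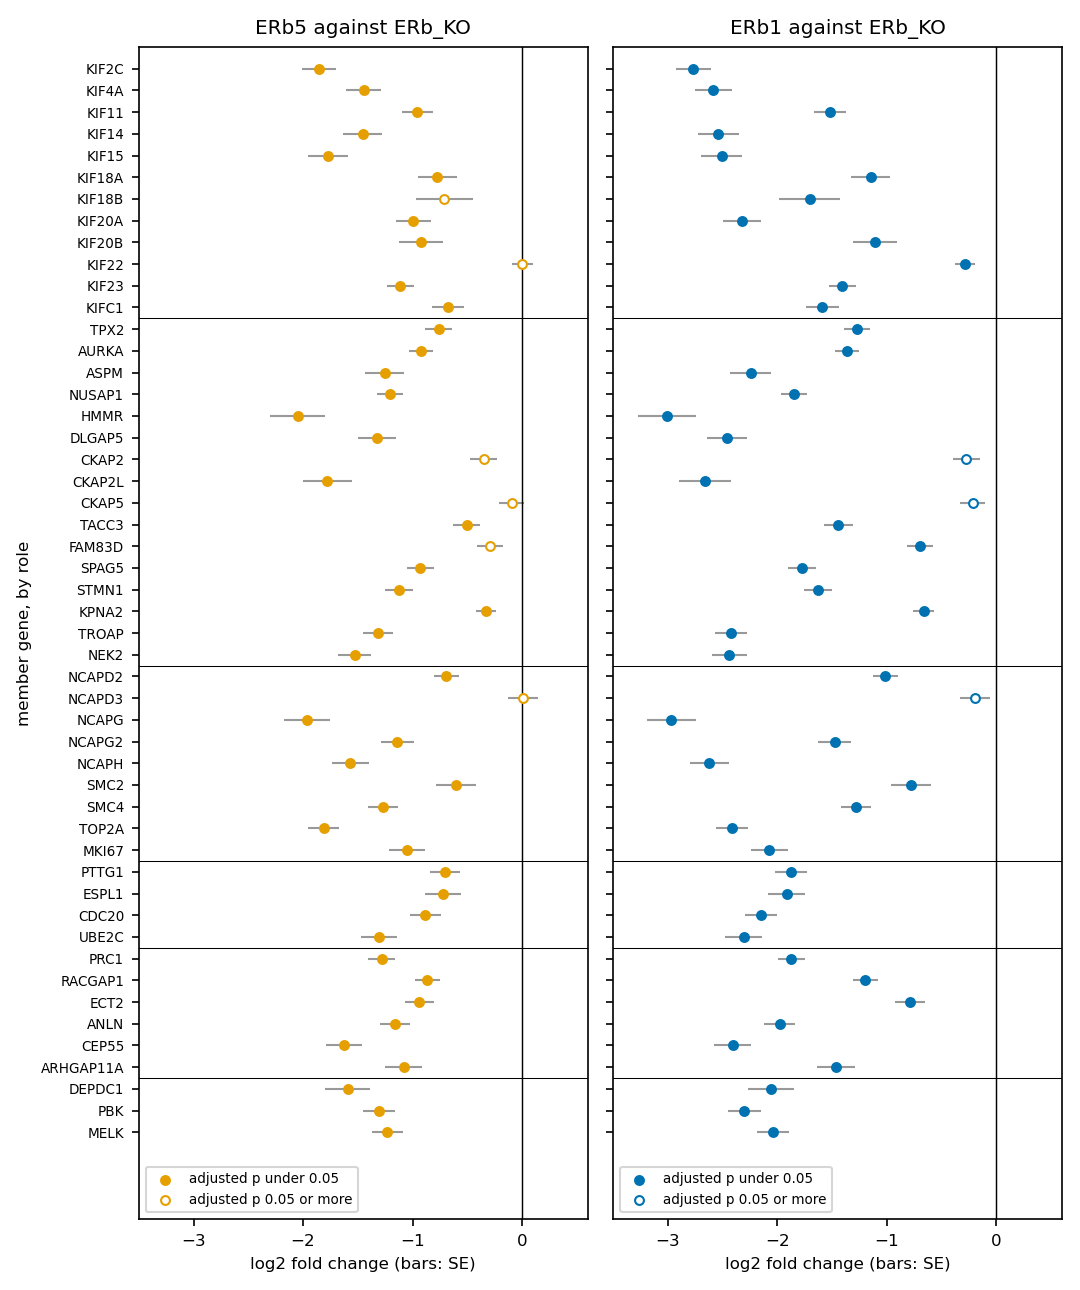
Log2 fold change of each member against ERb_KO (horizontal axis, bars SE), for ERb5 on the left and ERb1 on the right, with members by role down the page and open points where the adjusted p was 0.05 or more. In ERb1 47 members and in ERb5 44 members lie below 0 with filled points, and the ERb1 points reach further, to -3.01 in HMMR against -2.05 in ERb5. Both panels use the same ERb_KO libraries.

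In the libraries labelled ERb5, 44 of the 50 members fell against ERb_KO, none rose and 6 did not pass, while 13.5% of all genes tested fell, 14.7% rose and 28.2% changed. The median log2 change was -1.10, or 2.14-fold lower, against 0.0084 over all genes. Of the members 27 were at least 2-fold and 1 at least 4-fold lower, against 335 and 38 of all 13915 genes tested. ESR2 counts were again no higher in the libraries given the isoform by their label. The 3 largest falls were in the same genes as for ERb1, a comparison that shares the ERb_KO libraries. HMMR had 11.3 and 14 CPM in ERb5 and fell by 2.05 ± 0.25 (adjusted p = 0.000822). NCAPG, at 5.08 and 7.13 CPM in ERb5, fell by 1.96 ± 0.21 (adjusted p = 0.000251). KIF2C, at 18.3 and 26.2 CPM in ERb5, fell by 1.85 ± 0.15 (adjusted p = 0.000133). Their ERb_KO values, given above, all lay higher.

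The 6 members that did not pass in ERb5 against ERb_KO were KIF22 (0.0033 ± 0.09, adjusted p = 0.984, but -0.25 with adjusted p = 0.0304 once the GC and length trend was removed), NCAPD3 (0.0082 ± 0.14, adjusted p = 0.973), CKAP5 (-0.10 ± 0.12, adjusted p = 0.559), FAM83D (-0.29 ± 0.12, adjusted p = 0.0842), CKAP2 (-0.35 ± 0.12, adjusted p = 0.055, but 0.0654 with the trend removed) and KIF18B (-0.71 ± 0.26, adjusted p = 0.0595). KIF18B was the member with the fewest reads, at 3.33 and 3.89 CPM in ERb5 and 6.91 and 4.81 CPM in ERb_KO, and its groups did not overlap. By role, 10 of 12 kinesins, 13 of 16 spindle assembly genes, 8 of 9 chromosome-structure genes, 4 of 4 anaphase genes, 6 of 6 cytokinesis genes and 3 of 3 of the others fell. Across the 50 members the change had r = 0.388 with transcript GC content, and with the GC and length trend removed 44 members fell, with a median of -0.94.

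In all, 40 of the 50 members rose in ERb_KO against control and fell in both ERb1 and ERb5 against ERb_KO, a triple call made for 3.79% of all genes tested. The 3 comparisons share the ERb_KO libraries. Of these 40, 27 were also higher in ERb5 than in ERb1, a combination that was not counted over all genes tested. Of all genes tested, 3.49% were higher in ERb5 than in ERb1. The counts of 40 and 27 both depended on single libraries. With a control or ERb_KO library left out, the members' median log2 change in ERb_KO against control ran from 0.67 to 0.90. The 40 became 11 without the second control library and 20 without the first ERb_KO library, with 8 and 15 of those also higher in ERb5, and 3 with a minimum change of 1.5-fold, none of them higher in ERb5. Without the first ERb1 library 7 of 40 were also higher in ERb5, and without the second 15 of 40.

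The series title asks whether the isoforms differ, and the direct comparison of ERb5 with ERb1 sets no ERb_KO value against another, although the ERb_KO libraries enter the shared estimate of spread. In ERb5, 29 of the 50 members were higher than in ERb1, none was lower and 21 did not pass, while 3.49% of all genes tested were higher, 1.18% lower and 4.66% differed in all. The median log2 difference was 0.76, or 1.69-fold, against -0.0055 over all genes. The libraries behind this difference carried ESR2 counts that do not bear out either isoform. KIF20A, which carries the chromosomal passenger complex to the central spindle (chromosome 5, 137514408 to 137523412, plus strand), differed most. It had 27.1 and 38.6 CPM in ERb5 and 12.3 and 13.7 CPM in ERb1, a log2 difference of 1.33 ± 0.17 (adjusted p = 0.00108). CDC20 had 18.9 and 22.8 CPM in ERb5 and 8.45 and 8.84 CPM in ERb1 (1.26 ± 0.15, adjusted p = 0.000719). ESPL1 had 22.1 and 31.0 CPM in ERb5 and 12.2 and 11 CPM in ERb1 (1.19 ± 0.17, adjusted p = 0.00208). For all 3 genes both ERb5 libraries were above both ERb1 libraries.

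By role, differences between the isoform libraries ran as follows, and whether the roles differ was not tested. All 4 anaphase genes were higher in ERb5, with a median of 1.18, and PTTG1 (securin, which holds separase inactive until anaphase) differed by 1.18 ± 0.15 (adjusted p = 0.000961) and UBE2C by 1.00 ± 0.17 (adjusted p = 0.00589). Of the kinesins 6 of 12 were higher (median 0.82), of the spindle assembly genes 10 of 16 (0.75), of the chromosome-structure genes 4 of 9 (0.34), of the cytokinesis genes 3 of 6 (0.49) and of the others 2 of 3 (0.81). The smallest differences were those of SMC4 (0.01 ± 0.14, adjusted p = 0.98), CKAP2 (-0.07 ± 0.12, adjusted p = 0.806) and CKAP5 (0.12 ± 0.12, adjusted p = 0.635). ECT2, the exchange factor that activates RhoA at the cleavage site, had 63.2 and 52.1 CPM in ERb5 and 56.8 and 70.9 CPM in ERb1, overlapping groups (-0.15 ± 0.14, adjusted p = 0.62). Without the first ERb1 library 8 members were higher, and without the second 16. With a minimum change of 1.5-fold as the null, 6 passed.

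Against the control libraries, the ERb1 libraries were lower in 36 of the 50 members, higher in none and did not pass in 14, while 2.7% of all genes tested were lower, 1.36% higher and 4.06% changed. The median log2 change was -1.06, or 2.08-fold lower, against 0.0097 over all genes. Of the members 27 were at least 2-fold lower, against 285 of all 13915 genes tested. ESR2 had no more counts in ERb1 than in control, with both near the detection limit. Whether the isoform was returned cannot be told from them. TROAP, a microtubule-associated protein of the spindle (chromosome 12, 49717019 to 49725514, plus strand), had 10.7 and 9.13 CPM in ERb1 and 36.0 and 35.3 CPM in control (-1.85 ± 0.14, adjusted p = 0.000103). NCAPG followed, with 2.22 and 3.64 CPM in ERb1 and 11.5 and 10.0 CPM in control (-1.84 ± 0.22, adjusted p = 0.000917), and then KIF2C, with 12.1 and 11.5 CPM in ERb1 and 41.5 and 36.3 CPM in control (-1.72 ± 0.16, adjusted p = 0.000258). At the other end ECT2 (-0.03 ± 0.14, adjusted p = 0.933), the cytokinesis kinesin KIF20B (0.03 ± 0.20, adjusted p = 0.946) and CKAP5 (-0.05 ± 0.12, adjusted p = 0.848) had overlapping groups. CKAP2 was the member farthest above 0, with 49.0 and 57.7 CPM in ERb1 and 43.0 and 40.9 CPM in control (0.35 ± 0.12, adjusted p = 0.15). With the GC and length trend removed it passed as higher in ERb1 (0.305, adjusted p = 0.0482).

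In ERb5 against control fewer of the mitotic genes passed, whereas more of all genes tested did than in ERb1 against control. Here 12 of the 50 members were lower, none was higher and 38 did not pass, while 6.31% of all genes tested were lower, 6.85% higher and 13.2% changed. The median log2 change was -0.26, or 1.20-fold lower, against 0.0066 over all genes. The 12 were KIF2C, KIF4A, KIF15, NUSAP1, TROAP, NEK2, NCAPD2, NCAPG, NCAPH, TOP2A, PRC1 and CEP55, and all 12 were also lower in ERb1 against the same control libraries. NCAPG had 5.08 and 7.13 CPM in ERb5 and 11.5 and 10.0 CPM in control (-0.83 ± 0.21, adjusted p = 0.0246). TOP2A, which untangles DNA before chromatids part (chromosome 17, 38544777 to 38574148, minus strand), had 62.0 and 61.6 CPM in ERb5 and 120 and 97.6 CPM in control (-0.82 ± 0.14, adjusted p = 0.00255). KIF2C changed by -0.81 ± 0.15 (adjusted p = 0.00496). The smallest values were those of TACC3, which links spindle microtubules with CKAP5 and clathrin (0.02 ± 0.13, adjusted p = 0.928), FAM83D (-0.03 ± 0.12, adjusted p = 0.915) and AURKA (-0.05 ± 0.11, adjusted p = 0.826). With the GC and length trend removed CKAP2 passed as higher in ERb5 (0.318, adjusted p = 0.0243), and with the replicate block added NCAPD3 did as well (0.273, adjusted p = 0.0446). The count of lower members was 2 without the first control library, 4 without the second control library and 6 without the first ERb5 library, and 0 with a minimum change of 1.5-fold.

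Set against control, the members thus fell into 3 classes by call, which were not counted over all genes tested. Both calls use the same control libraries. Of all genes tested, 2.7% were lower in ERb1 and 6.31% in ERb5. Besides the 12 lower in both isoform groups, 24 passed in ERb1 and missed the threshold in ERb5, among them MKI67, AURKA, ASPM and the 4 anaphase genes, and 14 passed in neither. Of the 40 members that rose in ERb_KO and fell in both isoform groups, 7 were in the last class, namely KIF18A, KIF20B, KPNA2, SMC4, ECT2, ARHGAP11A and DEPDC1. Among them SMC4 had 94.2 and 82.7 CPM in ERb5, 77.1 and 98.3 CPM in ERb1, 235 and 193 CPM in ERb_KO, and 98.3 and 90.9 CPM in control. The ERb_KO libraries stood apart and the other 6 overlapped.

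Condensin subunits covered a wide range of changes, and the ranges of the 2 complexes overlapped. Condensin I (NCAPD2, NCAPG and NCAPH with SMC2 and SMC4) compacts chromosomes after the nuclear envelope breaks down, and condensin II (NCAPD3, NCAPG2 and NCAPH2 with the same core) is nuclear throughout the cycle. In ERb1 against ERb_KO all 3 condensin I subunits fell, with log2 changes of -2.97 for NCAPG, -2.62 for NCAPH and -1.01 for NCAPD2. Of the condensin II subunits NCAPG2 (-1.48, more than NCAPD2) and NCAPH2 (-0.51) fell, while NCAPD3 did not pass (-0.20). NCAPH had 11.1 and 13.4 CPM in ERb5, 5.03 and 6.57 CPM in ERb1, 39.9 and 32.3 CPM in ERb_KO, and 19.7 and 16.7 CPM in control. NCAPD3 had 51.7 and 42.4 CPM in ERb5, 41.2 and 40.6 CPM in ERb1, 52.9 and 40.6 CPM in ERb_KO, and 39.6 and 37.9 CPM in control. NCAPD2 had 82.4 and 85.9 CPM in ERb5, 68.9 and 65.8 CPM in ERb1, 148 and 123 CPM in ERb_KO, and 118 and 108 CPM in control. NCAPH and NCAPD2 thus kept their 4 groups apart while those of NCAPD3 lay within a narrow range. NCAPH2, which is not among the 50, had 27.5 and 31.9 CPM in ERb5, 24.5 and 23.4 CPM in ERb1, 32.5 and 35.7 CPM in ERb_KO, and 34.6 and 30.1 CPM in control, and in ERb1 against ERb_KO its log2 change was -0.51 (adjusted p = 0.0128). NCAPG2 was the condensin II subunit with the largest change, at 20.1 and 21.4 CPM in ERb1 and 64.5 and 50.9 CPM in ERb_KO (-1.48 ± 0.15, adjusted p = 6.54e-05). The difference between the complexes was not tested, and exons of NCAPD2, NCAPD3, NCAPG and SMC4 overlap exons of genes on the other strand.

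**Figure D5:**
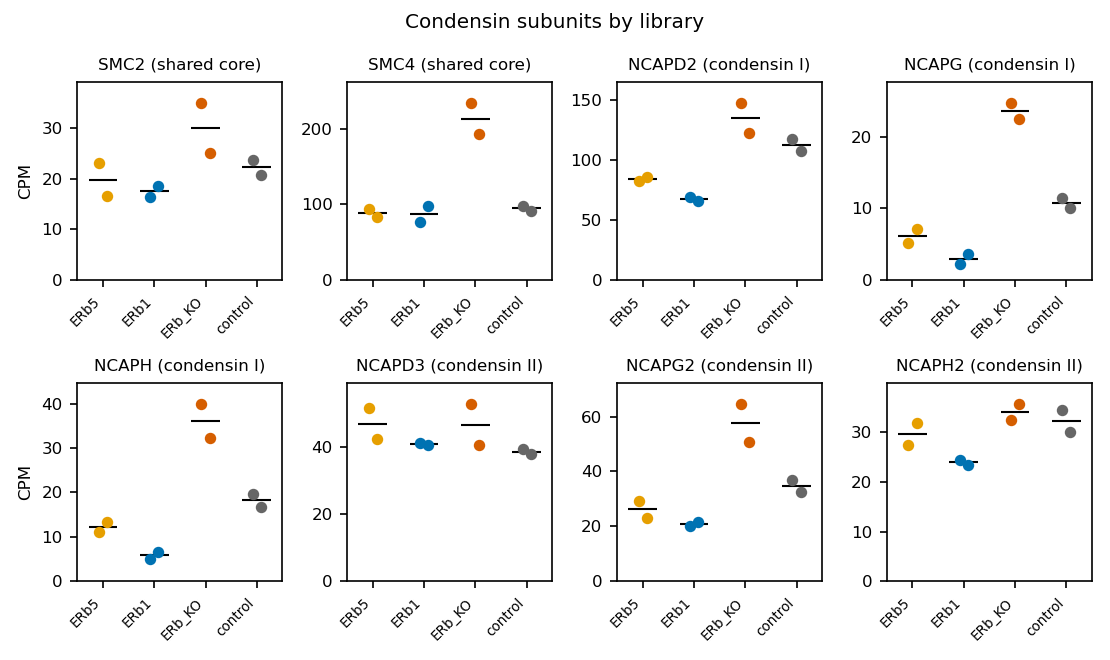
CPM (vertical axes, from 0) of the 2 core, 3 condensin I and 3 condensin II subunits in each library, with the libraries of ERb5, ERb1, ERb_KO and control from left to right and the group mean as a line. NCAPG and NCAPH are highest in ERb_KO and lowest in ERb1 without overlap, while NCAPD3 overlaps between ERb1 and ERb_KO and between ERb5 and ERb_KO.

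A few members in wide use as proliferation or cytokinesis markers were picked for fuller description after their values had been seen. MKI67, which coats mitotic chromosomes and gives the Ki-67 index of pathology, had 89.4 and 87.4 CPM in ERb5, 44.8 and 42.4 CPM in ERb1, 221 and 146 CPM in ERb_KO, and 105 and 89.0 CPM in control. Its 2 ERb_KO libraries differed more from each other than the libraries of any other group, and its log2 change in ERb1 against ERb_KO was -2.07 ± 0.17 (adjusted p = 1.5e-05). KIF11, the motor that pushes the spindle poles apart, had 31.7 and 28.5 CPM in ERb5, 17.7 and 23.0 CPM in ERb1, 63.4 and 53.4 CPM in ERb_KO, and 35.1 and 32.6 CPM in control. AURKA had 40.6 and 46.0 CPM in ERb5, 30.6 and 33.2 CPM in ERb1, 86.6 and 78.0 CPM in ERb_KO, and 45.2 and 44.2 CPM in control. In KIF11 and AURKA the ERb1 libraries lay below the other 6, and in AURKA the ERb5 and control libraries overlapped.

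Among the cytokinesis genes, anillin (ANLN), the scaffold of the contractile ring, had 78.0 and 73.2 CPM in ERb5, 40.5 and 45.2 CPM in ERb1, 191 and 147 CPM in ERb_KO, and 96.9 and 81.6 CPM in control. CEP55, which recruits the abscission machinery to the midbody, had 9.91 and 12.7 CPM in ERb5, 5.78 and 7.19 CPM in ERb1, 38.1 and 31.3 CPM in ERb_KO, and 17.4 and 15.6 CPM in control. In both genes the 4 groups followed the order ERb_KO, control, ERb5, ERb1 without overlap. RACGAP1, which forms centralspindlin with the motor KIF23, had 57.0 and 54.6 CPM in ERb5, 43.3 and 45.4 CPM in ERb1, 109 and 94.5 CPM in ERb_KO, and 68.7 and 57.6 CPM in control. In ERb1 against ERb_KO the log2 changes of CEP55, ANLN, RACGAP1 and ECT2 were -2.41 ± 0.17, -1.98 ± 0.14, -1.20 ± 0.12 and -0.79 ± 0.14, so these 4 falls covered a wide range.

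Other genes of the pathway were counted in lists of known function, and differences between the lists were not tested. In ERb1 against ERb_KO, where 12.5% of all genes tested fell and 12.4% rose, 15 of the 16 genes of the chromosomal passenger complex and the mitotic kinases and cyclins fell (median -1.71). CCNA2, the cyclin that drives entry into mitosis with CDK1 and CDK2, had 5.67 and 8.24 CPM in ERb1 and 49.0 and 47.0 CPM in ERb_KO (-2.77 ± 0.18, adjusted p = 5.19e-06). Log2 changes of the passenger kinase AURKB and its partner BIRC5 were -2.40 and -2.31. Of 18 regulators of mitotic transcription 11 fell (median -0.57), and the largest change was that of MYBL2, the activator that joins the MuvB core at CHR promoters, with 22.0 and 20.5 CPM in ERb1 and 112 and 99.7 CPM in ERb_KO (-2.32 ± 0.11, adjusted p = 1.91e-06). The repressors E2F8 (-2.16) and E2F7 (-1.67) followed. Cohesin genes and their regulators gave 9 falls among 16 (median -0.44), led by SGOL1 (-2.26), which protects centromeric cohesin, and ESCO2 (-2.12). Genes for replication gave 22 falls and 1 rise among 30 (median -0.70), and CDC45, a part of the replicative helicase, was the largest (-1.92).

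The remaining lists, against the same 12.5% of all genes that fell and 12.4% that rose, ran as follows. Of 22 tested kinesins that carry cargo or act in interphase, 5 rose and 2 fell, with a median of 0.02. KIFC3, a minus-end motor, was the largest rise, with 5.26 and 4.90 CPM in ERb1 and 2.43 and 1.68 CPM in ERb_KO (1.28 ± 0.24, adjusted p = 0.0031). The γ-tubulin ring and augmin genes gave 7 falls and 1 rise among 18 (median -0.32). The list for the anaphase-promoting complex gave 2 falls among 15. They were the core subunit CDC27 (-0.43) and UBE2S (-1.08), a ubiquitin-conjugating enzyme of the complex and not a core subunit. Septins, RhoA and ESCRT-III genes of abscission gave 2 rises among 21. The 6 genes of condensin outside the members and of SMC5/6 gave 2 falls, and among 12 tested quiescence and growth arrest genes 1 rose and 3 fell.

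In ERb5 against ERb1, where 3.49% of all genes tested were higher and 1.18% lower, 11 of the 16 passenger complex and kinase genes were higher in ERb5 (median 0.69) and none was lower. The counts of higher genes were 3 of 30 for replication (median 0.20) and 0 of 22 for the interphase kinesins. The list for the anaphase-promoting complex had 0 of 15, and none of these lists had a lower gene. MYBL2 was higher in ERb5, at 38.9 and 41.1 CPM against 22.0 and 20.5 CPM in ERb1 (0.92, adjusted p = 0.000751). In ERb_KO against control, where 8.98% of all genes tested rose and 8.52% fell, 12 of the 16 passenger and kinase genes rose and none fell, and of the 30 replication genes 12 rose and 1 fell.

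The members lie on 19 chromosomes, with at most 7 on the same chromosome. Their transcripts run from 715 to 12716 bases. The log2 change in ERb1 against ERb_KO was described over the 50 genes, which share libraries and depth. It had r = 0.491 with log2 mean CPM, r = 0.079 with GC content and r = 0.0597 with log2 length. Mean CPM was taken over all 8 libraries, those compared included, so it is not independent of the change. Exons of 21 members overlap exons of a gene on the opposite strand, 6 overlap a gene on the same strand and 16 have a pseudogene by name, so their counts may miss or include reads of those copies.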

How the data were processed

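Total RNA libraries (TruSeq, single-end reads) were sequenced from 8 samples. Per the submitters' processing notes, bcl2fastq, TopHat2 2.0.8b and HTSeq were used with hg19. HTSeq's version, strand setting and annotation are not given in these sources, so overlapping antisense genes cannot be told apart. The authors deposited raw counts per gene for each library. The 5 closing entries that name no gene were left out. Gene counts made up 52.5% to 57.1% of the sum of all entries, and non-unique alignments 34.7% to 39.9%.

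Counts of 13915 genes that passed filterByExpr (minimum count 10, total 15) were scaled by TMM and entered 1 quasi-likelihood fit of all 8 libraries in edgeR 4.0.16 (R 4.3.3) with its F test, with Benjamini-Hochberg adjustment over all genes tested in each of 6 comparisons. The SE was derived from the log2 fold change over the root of F, and the common biological coefficient of variation was 0.102. CPM of single libraries use TMM-scaled gene totals. Levels per kb use the canonical transcript of a GENCODE annotation on GRCh37. The fit was tested on simulated data.

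Replicates differed by more than sampling noise (chi-square per degree of freedom 7.52 to 41.37). The labels do not say that a replicate number marks a shared culture or day, and 2 libraries a group cannot show whether it does. Correlations of same-numbered deviations ran from -0.18 to 0.20 over all genes tested and from -0.22 to 0.36 over the members.

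Members and lists were chosen with earlier results of these data known. Genes named are, by rule, the highest and lowest level per kb in each role, the 3 largest and 3 smallest changes in each comparison, members that did not pass against ERb_KO, and up to 3 genes of each other list. Further members, among them MKI67, KIF11, ANLN, CEP55, RACGAP1, PTTG1, the condensin subunits and those listed by class, were named after their values were seen. Alternatives were relative log expression and upper quartile size factors, no filter or 1 CPM in 2 libraries, the compared groups only, DESeq2 1.42.0, a 1.5-fold minimum change, the replicate block, removal of each library's GC and length trend (lowess span 0.5), both together, and leaving out each library.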

Additional observations from a re-analysis of the deposited data

How the results depend on the processing

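With 2 libraries a group, counts near the threshold depend on single libraries. No member called in a comparison changed direction under any alternative, while CKAP2 and NCAPD3 gained calls as higher than control, as given above. Across size factors, filters, DESeq2, the fit of the compared groups and the GC and length correction, the counts of changed members stayed within 1.5 times the main count except in ERb5 against control, where testing without a filter on low counts gave 20 instead of 12. With the replicate block the members changed numbered 46 in ERb1 against ERb_KO, 41 in ERb_KO against control, 45 in ERb5 against ERb_KO, 28 in ERb5 against ERb1, 37 in ERb1 against control and 11 in ERb5 against control, so the block moved none of these counts by over 1.5 times. A minimum change of 1.5-fold left 41 members in ERb1 against ERb_KO, 3 in ERb_KO against control, 25 in ERb5 against ERb_KO, 6 in ERb5 against ERb1, 22 in ERb1 against control and 0 in ERb5 against control, since that test asks for a larger change. Leaving out each library in turn gave 45 to 47 members in ERb1 against ERb_KO, 11 to 42 in ERb_KO against control, 37 to 46 in ERb5 against ERb_KO, 8 to 30 in ERb5 against ERb1, 25 to 39 in ERb1 against control and 2 to 14 in ERb5 against control. The median log2 change of the members in ERb5 against ERb_KO was -0.94 with the GC and length trend removed, -0.93 with the replicate block as well, and -1.21 to -0.95 with libraries left out, and that in ERb5 against ERb1 was 0.62 to 0.80 with libraries left out. The background moved more. Over all genes, 4349 changed in the fit of the compared groups against 2434 in ERb_KO against control. With the GC and length trend removed, 2514 changed against 3922 in ERb5 against ERb_KO, 1178 against 649 in ERb5 against ERb1, 1383 against 565 in ERb1 against control and 3038 against 1831 in ERb5 against control, and adding the block gave 2607, 1289, 1496 and 3191 for these 4. Without a filter 1375 genes differed in ERb5 against ERb1 and 1384 in ERb1 against control, where DESeq2 gave 853 and the fit of the compared groups 1112. A 1.5-fold minimum left 86 (ERb1 against control) to 455 genes (ERb1 against ERb_KO), and leaving out libraries gave 247 to 3267 in ERb_KO against control, 1208 to 4203 in ERb1 against ERb_KO, 1689 to 4389 in ERb5 against ERb_KO, 131 to 1393 in ERb5 against ERb1, 130 to 992 in ERb1 against control and 591 to 2134 in ERb5 against control.

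Values that had not passed changed sign under some settings, most of them close to 0 but also those of CKAP2 against ERb_KO (-0.27 in ERb1 and -0.35 in ERb5). With the GC and length trend removed, and with the replicate block added, the log2 changes were 0.052 and 0.056 for CKAP2 in ERb1 against ERb_KO, -0.251 and -0.2504 for KIF22, 0.0654 and 0.0658 for CKAP2 and 0.042 and 0.045 for CKAP5 in ERb5 against ERb_KO, 0.013 and 0.0098 for CKAP2 in ERb5 against ERb1, -0.056 and -0.045 for KIF20B in ERb1 against control, and 0.0088 and 0.0082 for AURKA and -0.0228 and -0.0227 for TACC3 in ERb5 against control. KIF22 in ERb5 against ERb_KO was -0.00051 without a filter and -0.0044 in the fit of the compared groups, where NCAPD3 was -0.00037, and TACC3 in ERb5 against control was -0.0024 with upper quartile factors. With libraries left out the ranges were, in ERb1 against ERb_KO, -0.37 to 0.011 for NCAPD3. In ERb5 against ERb_KO they were -0.081 to 0.075 for KIF22, -0.17 to 0.21 for NCAPD3 and -0.24 to 0.063 for CKAP5. In ERb5 against ERb1 they were -0.22 to 0.056 for CKAP2, -0.080 to 0.55 for KIF20B, -0.15 to 0.20 for SMC4, -0.30 to 0.024 for ECT2 and -0.082 to 0.39 for SMC2. In ERb1 against control they were -0.33 to 0.30 for KIF20B, -0.20 to 0.12 for ECT2, -0.48 to 0.041 for KIF18A and -0.29 to 0.056 for SMC4. In ERb5 against control they were -0.076 to 0.11 for TACC3, -0.14 to 0.040 for AURKA, -0.23 to 0.17 for KIF18B, -0.17 to 0.039 for TPX2, -0.21 to 0.0064 for ASPM, -0.018 to 0.15 for CKAP5, -0.098 to 0.041 for FAM83D, -0.34 to 0.15 for ESPL1 and -0.42 to 0.041 for SMC2. The cause of these shifts was not tested.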
